A study of Mus musculus with 24 samples.

Results

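The 9 genes described here, *Malat1*, *Neat1*, *Leng8*, *Clk1*, *Clk4*, *Sfi1*, *Kcnq1ot1*, *Meg3* and *Airn*, are grouped as genes whose transcripts stay in the nucleus, wholly or in part. Where in the cell their RNA lay was not measured. These genes are 9 of the 55401 genes in the count table of a bulk RNA-seq study of the mouse maternal-fetal interface (MFI), the joined placental and uterine tissue of pregnancy. They were chosen by name because several of them were lower together in C1qtnf6-KO mice at gd19.5 (gestation day), close to birth. Measured values of that stage therefore chose them, and the difference between genotypes at gd19.5 is given below as a description, with no p-value for any member. Counts of calls in that contrast say how the members were picked and support nothing. The reason for the choice names no other stage, though earlier results of these data were known when it was made. The MFI was sampled from wild-type (WT) mice and from mice homozygous for a CRISPR-Cas9 deletion in *C1qtnf6*, the gene for the secreted protein CTRP6, both on the C57BL/6 background. Each genotype was sampled at 4 stages from gd10.5 through gd14.5 and gd16.5 to gd19.5, with 3 libraries a group, which gives 24 libraries in 8 groups. The deletion was carried by the whole animal and was not limited to a tissue. The labels give no dam, litter, fetal sex or date and do not say whether libraries came from separate animals, so p-values measure the spread between these libraries only.

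*Malat1* and *Neat1* are long noncoding RNAs of nuclear bodies. *Malat1* gathers in nuclear speckles, where splicing factors are stored, and the long form of *Neat1* is the scaffold of paraspeckles. *Clk1* and *Clk4* encode kinases that phosphorylate SR splicing proteins, and their own transcripts are a standard example of RNAs that keep an intron and wait in the nucleus until it is spliced. *Leng8* encodes a protein with a domain shared by mRNA export factors, and *Sfi1* encodes a centrin-binding protein of the centrosome. *Kcnq1ot1* and *Airn* are imprinted noncoding RNAs made from the paternal allele that silence neighbouring genes in cis in the placenta, and *Meg3* is the maternally expressed noncoding RNA of the imprinted *Dlk1*-*Dio3* domain.

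Total counts ran from 20975717 to 37383108 per library, and the detection limit, set at 3 counts, stood for 0.0803 to 0.143 CPM. All 9 transcripts were far above it in every library. CPM (counts-per-million) are counts scaled to the library size after TMM normalization over all 24 libraries. The deleted gene *C1qtnf6* was at 64.7 to 168 CPM in the WT libraries and at 0.0340 to 2.05 CPM in the KO libraries, which fits the labels. In bulk tissue, fewer cells of a type and less RNA per cell cannot be told apart. Markers of spongiotrophoblast, trophoblast giant cells, labyrinth trophoblast, decidual stroma and endothelium were present in every library, with the labyrinth marker *Synb* at or under the detection limit throughout. T cell markers summed to at most 2.21 CPM. At gd16.5, markers of yolk sac endoderm summed to 5651, 183 and 196 CPM in WT replicates 1, 2 and 3 and to 5510, 18380 and 168 CPM in the KO replicates, so 3 of the 6 libraries stood apart. At gd10.5, spongiotrophoblast markers summed to 14880 CPM in KO replicate 2 and to between 999 and 2402 CPM in the other 5 libraries. Yolk sac endoderm markers at gd10.5 summed to 2958, 33.6 and 29.8 CPM in WT replicates 1, 2 and 3 and to 1559, 1061 and 2691 CPM in KO, so 4 of these 6 libraries stood apart. No fit of gd10.5 without them was possible for KO, since they include all its libraries.

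The sequences at the ends of the transcripts are shown because the libraries were made from polyA RNA, while *Malat1* and the long form of *Neat1* are known to end without a polyA tail. Both ends are instead held by a triple helix between U-rich stretches and an A-rich stretch, and an enzyme that cuts off a small tRNA-like RNA makes the end. In the sequences that follow, from GENCODE M21 on GRCm38 and written as DNA in the direction of transcription, capitals mark the U-rich motifs TTTTTCTTT and TTTTGCTTT and the A-rich motif AAAGCAAA. The *Malat1* region is bases 6583 to 6691 of *Malat1-201* (chr19:5795982-5796090, minus strand), and it stops right before the 58 bases of *Mascrna*, the tRNA-like RNA, in RefSeq. The *Neat1* region is bases 20652 to 20771, the last 120 of *Neat1-201* (chr19:5824708-5824827, minus strand).
Malat1 3′ region: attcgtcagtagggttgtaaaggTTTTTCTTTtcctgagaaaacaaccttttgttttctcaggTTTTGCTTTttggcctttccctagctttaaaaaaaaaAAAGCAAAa
Neat1 3′ end: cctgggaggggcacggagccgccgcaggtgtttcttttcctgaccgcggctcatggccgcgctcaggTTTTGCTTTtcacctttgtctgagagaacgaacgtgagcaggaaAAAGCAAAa

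The A-rich motif stood within the last 30 bases of 434 of 141767 annotated transcripts (0.306%), and 5 of these, *Neat1-201* among them, also had a U-rich motif within their last 120 bases. *Malat1-201* is not among the 434, because its annotation runs on past the cut. The A-rich stretch of *Malat1* holds a run of 12 A. An internal run of A is a place where oligo-dT can bind. *Kcnq1ot1*, a transcript of 93092 bases without introns, holds a run of 41 A within bases 69535 to 69635 (chr7:143226915-143227015, minus strand), shown here with the run in capitals.
Kcnq1ot1 internal A run: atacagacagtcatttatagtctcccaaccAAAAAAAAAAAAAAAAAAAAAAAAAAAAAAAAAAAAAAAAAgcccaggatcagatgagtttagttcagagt
*Meg3* holds a run of 16 A, and the longest runs of the other 6 genes were 4 to 7 A. Among 42587 annotated transcripts of at least 2000 bases the median longest run was 6 A, with 15.4% at 10 or more and 3.12% at 16 or more. How far these stretches set the counts was not tested.

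At gd19.5 the 9 transcripts were lower in KO, and for each of them the highest KO library was below the lowest WT library. *Malat1* (ENSMUSG00000092341, chr19:5795690-5802672, minus strand) was at 382, 409 and 403 CPM in WT and at 211, 271 and 233 CPM in KO. The means were 398 ± 14.2 and 238 ± 30.6 CPM (SD, n = 3), a log2 fold change of -0.77 (SE 0.096). *Neat1* (ENSMUSG00000092274, chr19:5824708-5845478, minus strand), its neighbour upstream on the same strand, was at 219, 201 and 219 CPM in WT and at 151, 139 and 144 CPM in KO. The log2 fold change was -0.59 (SE 0.066). These nuclear body RNAs had the largest differences of the 9, and their WT libraries were closer to each other at gd19.5 than at any earlier stage.

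The transcripts of the splicing kinases differed less. *Clk4* (chr11:51261730-51281766, plus strand) was at 91.4, 86.4 and 90.8 CPM in WT and at 69.3, 67.7 and 67.1 CPM in KO, which differ by -0.42 on the log2 scale (SE 0.057). *Clk1* (chr1:58410189-58424066, minus strand) was at 163, 174 and 203 CPM in WT and at 147, 158 and 142 CPM in KO. That is a log2 fold change of -0.30 (SE 0.092). The groups of *Clk1* came close, with WT replicate 1 at 163 and KO replicate 2 at 158 CPM. The coding transcripts *Clk1-201* and *Clk4-201* are 73.4% identical over 1458 aligned bases, and reads that map to several places were left out of the counts.

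*Leng8* (chr7:4137039-4148177, plus strand) was at 99.3, 92.9 and 98.8 CPM in WT and at 68.6, 69.2 and 63.2 CPM in KO, which differ by -0.56 on the log2 scale (SE 0.064). *Sfi1* (chr11:3131850-3193463, minus strand) was at 179, 180 and 174 CPM in WT and at 138, 129 and 139 CPM in KO. The log2 fold change was -0.42 (SE 0.058). These are protein-coding genes with annotated transcripts that keep an intron: 3 of the 10 transcripts of *Leng8* and 6 of the 20 of *Sfi1* are of that kind in GENCODE M21, as are 7 of 13 for *Clk1* and 7 of 14 for *Clk4*. Among 14427 coding genes tested at gd19.5 the median number was 1, and 11.8% had 4 or more. The gene counts do not say which transcripts of a gene the reads came from.

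Of the imprinted RNAs, *Kcnq1ot1* (chr7:143203458-143296549, minus strand) was at 27.8, 29.0 and 31.7 CPM in WT and at 20.6, 22.5 and 18.8 CPM in KO, which differ by -0.54 on the log2 scale (SE 0.092). *Meg3* (chr12:109541001-109571726, plus strand) was at 203, 207 and 189 CPM in WT and at 150, 161 and 126 CPM in KO. That is a log2 fold change of -0.48 (SE 0.089). *Airn* (chr17:12741311-12860136, plus strand) was at 22.2, 22.0 and 21.6 CPM in WT and at 18.1, 20.6 and 16.1 CPM in KO, which differ by -0.29 on the log2 scale (SE 0.095). *Airn* had the tightest WT group of the 9 and the smallest difference, with KO replicate 2 near the WT level. Counting ignored the strand, and 1.2% of the exon bases of *Kcnq1ot1* are shared with other genes, among them *Kcnq1* on the opposite strand. The share was 8.29% for *Meg3*, 7.72% for *Malat1* and at most 4.11% for the other genes. These shares do not cover reads from introns of a gene on the opposite strand, which would also be counted and were not measured.

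**Figure D1:**
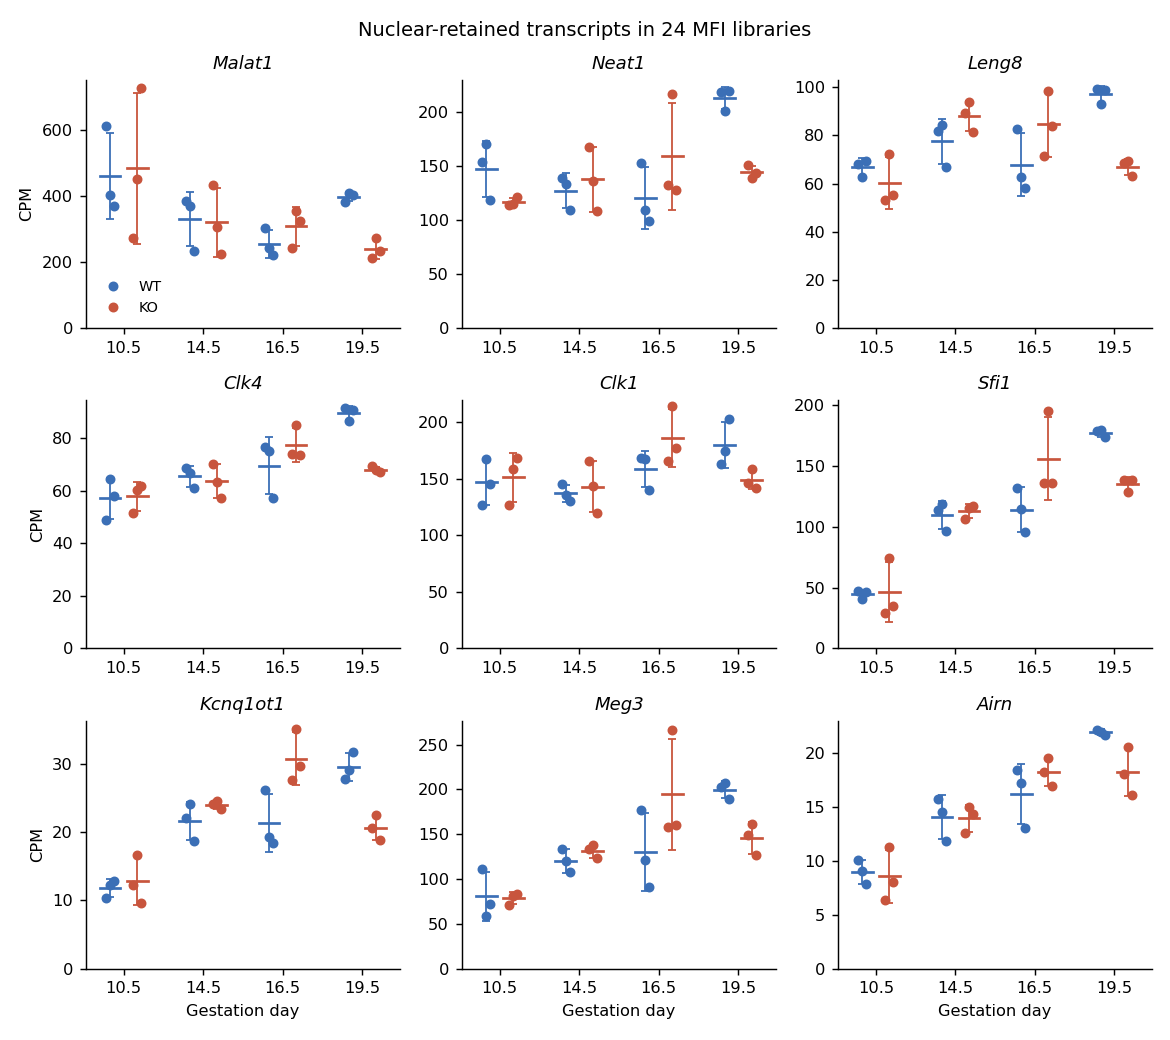
CPM (vertical axes, from 0) of the 9 transcripts by gestation day, 1 point per library and 3 libraries per genotype and stage, with lines through the group means. At gd19.5 the KO points lie below all WT points in each panel, while at gd10.5 and gd14.5 the points of both genotypes overlap.

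By the quasi-likelihood test of edgeR, which calls a gene at a Benjamini-Hochberg adjusted p under 0.05, 5 of the 9 (*Malat1*, *Neat1*, *Leng8*, *Clk4* and *Sfi1*) were called lower at gd19.5, against 0.115% of the 17397 genes tested. Every KO library was below every WT library in 8.55% of the genes tested. The members were chosen on this contrast, so nothing is read from either count. *Clk4* and *Sfi1* were the called members nearest the threshold, and *Kcnq1ot1* and *Meg3* the nearest outside it. The number called depended on the fit: it was 7 by DESeq2 and by voom, 0 when all 24 libraries shared 1 fit or Y-linked expression was a covariate, 8 without the expression filter, and 0 without any 1 of 5 of the 6 libraries (3 without KO replicate 2). The log2 fold change stayed below 0 for each of the 9 in all 14 alternatives. Nothing is read from this either, since the genes were chosen on these libraries.

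At gd19.5 the 9 transcripts together took 0.138% of all counts in each WT library and 0.0899% to 0.104% in the KO libraries. This share restates the contrast that chose the genes. Other values of the libraries also differed between genotypes at gd19.5. Mitochondrial transcripts took 2.18% to 2.41% in WT and 1.93% to 2.12% in KO. Summed markers of labyrinth trophoblast were lower in every KO library (1465 to 2030 CPM against 2197 to 2974), as were those of decidual stroma (1976 to 2300 against 2503 to 3759, though 3 of its 6 markers were higher and the median log2 fold change was 0.02) and yolk sac endoderm (192 to 233 against 250 to 394). Summed markers of macrophages (974 to 1009 CPM against 816 to 921) and mesothelium (474 to 496 against 401 to 470) were higher in every KO library. Their single markers were split, with 4 of 6 and 3 of 5 tested higher and median log2 fold changes of 0.09 and 0.07. Of the NK cell markers tested, 3 of 4 were lower (median -0.49). Of the fetal erythroid markers, 5 of 6 were higher (median 0.55). Summed NK cell markers leaned the other way, at 100.1 to 111.7 CPM in KO and 85.6 to 100.2 CPM in WT, which overlap. The sums of fetal erythroid markers also overlapped between genotypes. All 6 markers of endothelium and all 6 of uterine smooth muscle had higher means in KO, with median log2 fold changes of 0.28 and 0.42. Of each, 3 had an unadjusted p under 0.05 by edgeR, as did 1123 genes higher and 1231 lower of all 17397 tested. The sums of these 2 lists overlapped between genotypes. Single markers called by edgeR were *Rbp4* of yolk sac endoderm, lower in KO, and *Lrrn4* of mesothelium, higher in KO. The part of cell composition in the differences was not tested.

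At gd16.5, a stage that the reason for the choice does not name, each of the 9 had a higher mean in KO than in WT, and none passed the test. edgeR, DESeq2 and voom each called 0 of 9. Over all genes tested edgeR called 0.00586% of 17071, DESeq2 172 of 14072 and voom 1 of 17071. At an unadjusted p under 0.05 by edgeR, 2 of the 9 were higher, beside 938 genes higher and 956 lower of the 17071. The median log2 fold change of the 9 was 0.33, beside 0.0083 for all genes tested, of which 8815 were higher and 8256 lower. The median of the 9 depended on single libraries, at 0.16 without KO replicate 2 and 0.50 without WT replicate 1, and was 0.18 by voom. *Kcnq1ot1* was at 26.2, 19.3 and 18.4 CPM in WT and at 27.6, 35.0 and 29.7 CPM in KO. The log2 fold change was 0.54 (SE 0.16, edgeR adjusted p = 0.408). *Sfi1* was at 132, 115 and 95.4 CPM in WT and at 137, 196 and 136 CPM in KO, which differ by 0.46 on the log2 scale (SE 0.18, edgeR adjusted p = 0.433). For these genes every KO library was above every WT library, which held for 8.11% of all genes tested, and for both the highest WT library came within a few CPM of the lowest KO library.

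The other 7 overlapped between genotypes at gd16.5. *Meg3* had the largest fitted difference, at 177, 121 and 91.4 CPM in WT and at 158, 266 and 160 CPM in KO. That is a log2 fold change of 0.60 (SE 0.28, edgeR adjusted p = 0.464). *Neat1* was at 153, 109 and 98.9 CPM in WT and at 133, 216 and 128 CPM in KO, which differ by 0.41 on the log2 scale (SE 0.24, edgeR adjusted p = 0.508). *Malat1* was at 302, 242 and 222 CPM in WT and at 243, 355 and 324 CPM in KO. The log2 fold change was 0.28 (SE 0.17, edgeR adjusted p = 0.516). WT replicate 1 was the highest WT library for all 9, and KO replicate 2 was the highest KO library for all 9. These are both among the libraries with high yolk sac endoderm markers, and KO replicate 2 was the deepest library of its stage with 36719360 counts. Without the 3 libraries with those markers the median log2 fold change of the 9 was 0.38 and 0 were called, with the single KO library left assumed to vary like the others. Summed markers of spongiotrophoblast were higher in every KO library at gd16.5 (59610 to 64220 CPM against 36840 to 49230), as were those of trophoblast giant cells (26940 to 31230 against 17970 to 25260) and the share of counts in the 50 most abundant genes (30.1% to 31.9% against 23.2% to 27.4%). All 6 endothelium markers were lower in KO (median log2 fold change -0.36), as were 3 of 4 NK cell markers tested (median -0.89). Of these, 3 and 2 had an unadjusted p under 0.05 by edgeR, beside 956 genes lower of all 17071 tested. Of the macrophage markers, 4 of 6 were higher (median 0.495). edgeR called 0 in each of these lists. The part of these values in the differences was not tested. *Leng8*, *Clk1*, *Airn* and *Clk4* had log2 fold changes of 0.33, 0.24, 0.18 and 0.17, with edgeR adjusted p-values of 0.468, 0.472, 0.594 and 0.591.

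At gd10.5 and gd14.5 none of the 9 was called, and at neither stage did a member have an unadjusted p under 0.05. DESeq2 and voom also called none of them. edgeR called 0.00572% of 17480 genes at gd10.5 and 0.0166% of 18024 at gd14.5. All 9 overlapped between genotypes at both stages, while the genotypes did not overlap for 4.18% of genes at gd10.5 and for 12.5% at gd14.5. At gd10.5 the log2 fold changes ran from -0.33 (*Neat1*, SE 0.15) to 0.13 (*Kcnq1ot1*, SE 0.21), each with an edgeR adjusted p of 1.00. *Malat1* was at 610, 401 and 370 CPM in WT and at 273, 451 and 726 CPM in KO, the widest spread it showed at any stage. *Neat1* was at 153, 170 and 118 CPM in WT and at 114, 115 and 121 CPM in KO. At gd14.5 the log2 fold changes ran from -0.05 (*Clk4*) to 0.18 (*Leng8*, SE 0.091), with edgeR adjusted p-values of 0.752 to 0.979. *Leng8* was at 81.8, 84.1 and 66.8 CPM in WT and at 89.4, 93.7 and 81.4 CPM in KO, and WT replicates 1 and 2 lay above the lowest KO library.

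**Figure D2:**
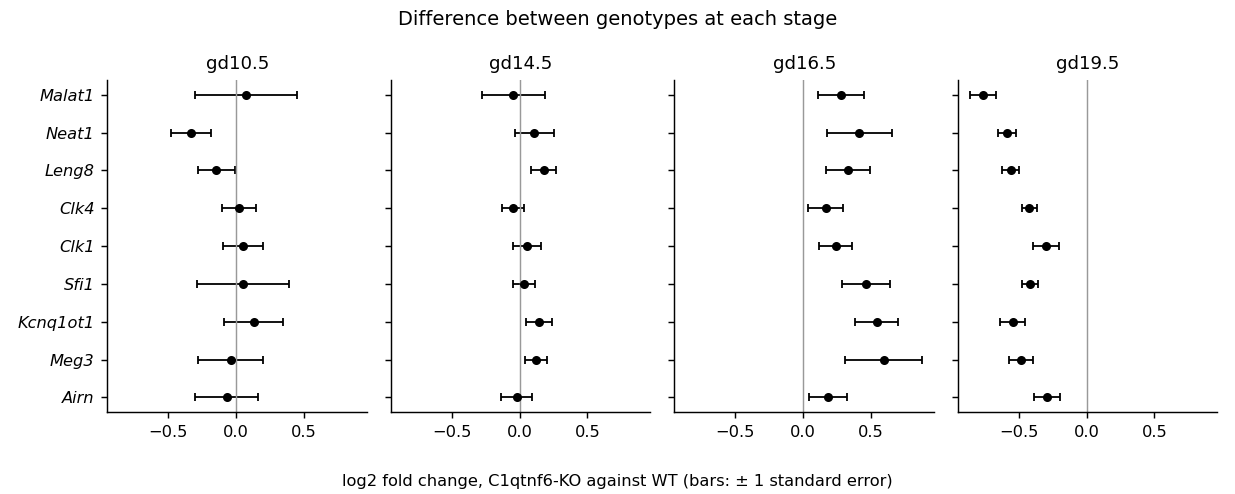
Log2 fold change of C1qtnf6-KO against WT (horizontal axes, bars ± 1 standard error) for the 9 transcripts, with 1 panel per stage and 3 libraries per group. Points lie on both sides of 0 at gd10.5 and gd14.5, between 0.17 and 0.60 at gd16.5, where none was called, and between -0.77 and -0.29 at gd19.5, the stage on which the genes were chosen.

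Whether the KO effect differed between gd10.5, gd14.5 and gd16.5 was tested over the 18 libraries of those stages. edgeR called 0 of 18969 genes (0.0%), with a smallest adjusted p of 0.899 and 884 genes at an unadjusted p under 0.05. DESeq2 called 5 genes, and neither tool called any of the 9, whose edgeR adjusted p-values were 0.937 to 0.967. The stage that chose the genes was left out, so the reversal in sign between gd16.5 and gd19.5 was not tested.

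Over pregnancy the 9 transcripts took different courses. From gd10.5 to gd14.5, *Sfi1*, *Kcnq1ot1*, *Meg3* and *Airn* rose in both genotypes. *Sfi1* rose most, from 47.4, 40.4 and 46.0 to 114, 119 and 96.9 CPM in WT, a log2 fold change of 1.33 (SE 0.10, edgeR adjusted p = 2.7e-05). In KO it went from 29.4, 74.3 and 35.0 to 106, 115 and 117 CPM, a log2 fold change of 1.31 (SE 0.33, edgeR adjusted p = 0.0239). The KO gd10.5 library at 74.3 CPM is replicate 2, the one with high spongiotrophoblast markers.

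The imprinted RNAs rose over the same step. *Kcnq1ot1* went from 10.4, 12.3 and 12.8 to 22.1, 24.1 and 18.6 CPM in WT, a log2 fold change of 0.90 (SE 0.12, edgeR adjusted p = 0.000434), and by 0.92 on the log2 scale in KO (SE 0.19, adjusted p = 0.0139). Without WT gd10.5 replicate 1, the WT library with high yolk sac endoderm markers, the number called in WT was again 4. *Airn* rose by 0.67 in WT (SE 0.15, adjusted p = 0.00499) and by 0.72 in KO (SE 0.21, adjusted p = 0.0372). *Meg3* rose by 0.59 in WT (SE 0.22, adjusted p = 0.0447), where its groups overlapped and 5 of 10 alternatives did not call it, and by 0.75 in KO (SE 0.094, adjusted p = 0.00442). *Leng8* was called in KO alone (0.57, SE 0.13, adjusted p = 0.0184), with 0.24 and an adjusted p of 0.0694 in WT, and the difference between these steps did not pass the test of interaction given above. *Malat1* had log2 fold changes of -0.46 in WT (adjusted p = 0.130) and -0.58 in KO (adjusted p = 0.270). In all, 4 of 9 were called in WT, where 55.0% of 18110 genes were, and 5 of 9 in KO, where 36.7% of 17657 genes were, so neither count stands far from the background. The KO count was 1 or 2 without any 1 of the libraries except KO gd10.5 replicate 2, without which it was 5.

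From gd14.5 to gd16.5 edgeR called 0 of 9 in WT, against 24.6% of 17129 genes, and DESeq2 also called 0 of 9. Of the 9, only *Clk1* had an unadjusted p under 0.05 by edgeR, as did 3433 genes higher and 2989 lower of those tested. In KO, *Airn* (0.39, SE 0.10, edgeR adjusted p = 0.0264), *Kcnq1ot1* (0.36, SE 0.097, adjusted p = 0.0301) and *Sfi1* (0.47, SE 0.14, adjusted p = 0.0442) rose. That is 3 of 9, against 26.9% of 17594 genes. *Airn* went from 12.6, 15.01 and 14.3 to 18.3, 19.6 and 16.9 CPM, and for 6 of the 9 every KO gd16.5 library lay above every KO gd14.5 library, against 21.4% of all genes. The number called in KO was 6 by DESeq2, and by edgeR 0 without any 1 of the KO gd14.5 libraries and 1 without KO gd16.5 replicate 1.

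From gd16.5 to gd19.5 the courses of the genotypes parted, and since this step rests on the libraries that chose the genes it is a description. In WT the log2 fold changes were all above 0, from 0.20 (*Clk1*) to 0.84 (*Neat1*), with a median of 0.53, and for 8 of 9 every gd19.5 library lay above every gd16.5 library, against 13.5% of all genes. In KO they were all below 0, from -0.02 (*Airn*) to -0.60 (*Kcnq1ot1*), with a median of -0.34, and for 4 of 9 (*Leng8*, *Clk4*, *Clk1* and *Kcnq1ot1*) every gd19.5 library lay below every gd16.5 library, against 13.6% of all genes. The count past the threshold was 4 of 9 in WT, where 7.23% of 17269 genes were called, and 1 of 9 in KO, where 5.48% of 17348 were. Nothing is read from these counts, and the gd16.5 and gd19.5 libraries are the same as in the comparisons of genotype.

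Per length of exon, *Malat1* was the most abundant of the 9, at a mean of 49.96 RPKM, which is CPM per kilobase of exon, over the 8 groups. *Clk1* followed at 19.2, *Sfi1* at 14.8, *Leng8* at 11.9, *Clk4* at 11.8, *Meg3* at 7.47, *Neat1* at 7.02 and *Airn* at 3.25 RPKM. *Kcnq1ot1*, the longest, was lowest at 0.232 RPKM. The lengths were those of the deposited table, which for *Airn* gives 4623 exon bases where GENCODE M21 gives 3597.

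In the order of the 8 groups by mean CPM, WT gd19.5 came first for *Neat1*, *Leng8*, *Clk4*, *Sfi1*, *Meg3* and *Airn*. It overlapped with the next group for all of these except *Clk4* and *Airn*. KO gd16.5 came first for *Clk1* and *Kcnq1ot1*, in both overlapping with WT gd19.5. *Malat1* differed, with KO gd10.5 first at 483 CPM and KO gd19.5 last at 238 CPM, and each neighbouring pair of groups in its order overlapped. For *Sfi1*, WT gd10.5 was last at 44.6 CPM and WT gd19.5 first at 177 CPM. The genes were chosen as lower in KO than in WT at gd19.5, so the places of the gd19.5 groups follow in part from the choice. Nothing is read from those places, and how often WT gd19.5 came first among all genes was not counted.

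The difference at gd19.5 was compared with lists of genes of related function, none of which had a gene called by edgeR at any stage. Of all 17397 genes tested at gd19.5, 1231 were lower and 1123 higher at an unadjusted p under 0.05 by edgeR. Of 27 other genes known to retain introns, 25 were lower in KO at gd19.5, with a median log2 fold change of -0.20. Of these 27, 15 had an unadjusted p under 0.05, all lower. The most abundant were *Ddx5* and *Ddx17*, RNA helicases, at -0.07 and -0.10, *Rbm39* at -0.13, and *Hnrnph1* at -0.26 (342 ± 5.46 against 290 ± 16.7 CPM, SD, n = 3, edgeR adjusted p = 0.187). Of 17 other nuclear noncoding RNAs 14 were lower, with a median of -0.30 and 7 at an unadjusted p under 0.05. The most abundant of them, *Xist*, was at 950 ± 645 CPM in WT and 620 ± 417 CPM in KO. That is -0.65 on the log2 scale (edgeR adjusted p = 0.706), with overlap between the genotypes. *Firre*, a nuclear RNA of the X chromosome, was at 66.3 ± 1.97 CPM in WT and 47.9 ± 4.83 CPM in KO, -0.50 on the log2 scale (edgeR adjusted p = 0.0685), while *Tug1* was at 0.01 (adjusted p = 0.965). DESeq2 called *Firre*, *Snhg14*, *Luc7l2* and *Srsf5* lower and *Jun* and *Junb* higher at gd19.5, and voom called *Firre*.

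Proteins of nuclear bodies were listed beside the RNAs, which were chosen for their difference at this stage, so the sizes are not compared. Of 23 speckle and SR proteins 17 were lower at gd19.5, with a median of -0.11 and 5 at an unadjusted p under 0.05. Among the most abundant of them were *Son* at -0.11, *Srrm2* at -0.17 and *Srsf5* at -0.28 (193 ± 1.11 against 162 ± 7.40 CPM, edgeR adjusted p = 0.127). Of 15 paraspeckle proteins 12 were lower, with a median of -0.07, and *Nono* and *Sfpq*, which bind *Neat1*, were at -0.06 (adjusted p = 0.753) and -0.10 (adjusted p = 0.633). Other kinases of SR proteins had a median of -0.01 over 9 genes, with 5 lower. Genes of nuclear RNA decay and export had a median of -0.03 over 20 genes, with 11 lower. The median over all genes tested was -0.0067.

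Lists that are not nuclear were followed as well, with 0 genes called by edgeR. Noncoding RNAs that are cytoplasmic or host snoRNAs had a median of -0.18 over 17 genes, with 13 lower, among them *Gas5* at -0.28 (edgeR adjusted p = 0.195), while *H19* was at 0.06 (adjusted p = 0.868). Mitochondrial genes had a median of -0.17, with 11 of 12 lower, and ribosomal protein genes a median of -0.08, with 31 of 40 lower. Immediate early genes had a median of 0.15, with 17 of 18 higher and 9 without overlap between genotypes, against 12.8% of genes tested. At gd16.5 the medians were 0.15 for genes with retained introns (25 of 27 higher), 0.20 for other nuclear noncoding RNAs, 0.07 for speckle and SR proteins, 0.13 for cytoplasmic and host RNAs and 0.10 for ribosomal protein genes, with 0 called in each by edgeR, DESeq2 and voom and at most 2 of a list at an unadjusted p under 0.05.

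**Figure D3:**
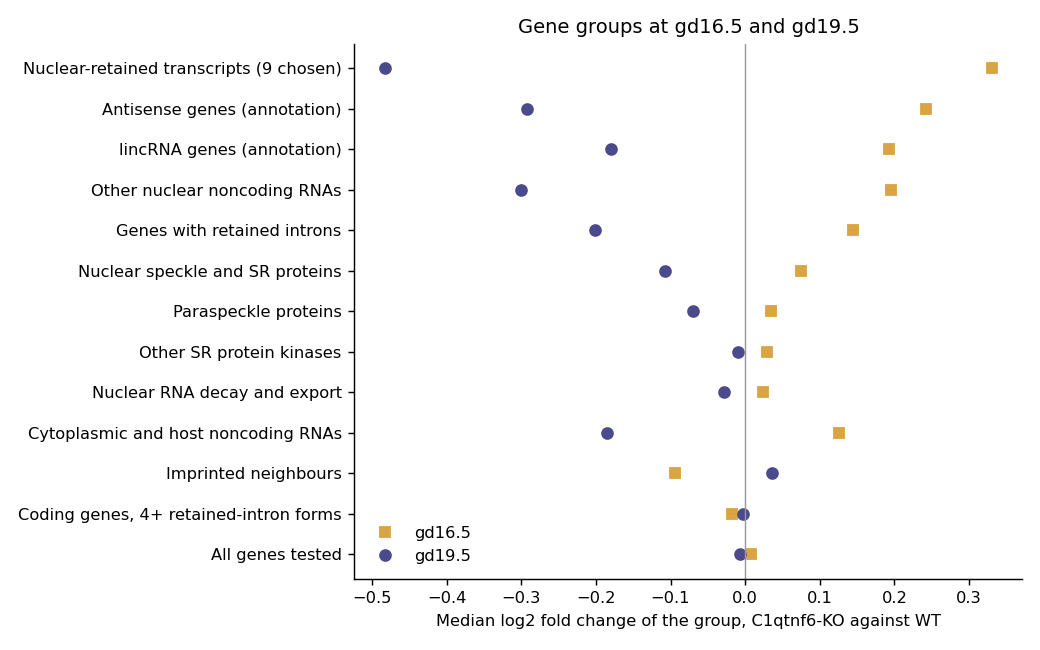
Median log2 fold change of C1qtnf6-KO against WT (horizontal axis) of groups of genes at gd16.5 and gd19.5. The 9 transcripts are at the top and all genes tested at the bottom. Between them are lists of related function and, from the annotation, antisense genes, long intergenic genes and coding genes with 4 or more retained-intron transcripts. Not drawn are mitochondrial, ribosomal protein and immediate early genes, the genes beside *Malat1* and *Neat1* and the cell type markers. The 9 transcripts lie at 0.33 at gd16.5 and at -0.48 at gd19.5, a place fixed by their choice at that stage.

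Annotation classes gave a wider view, with the 9 left out. The 511 long intergenic RNAs tested at gd19.5 had a median log2 fold change of -0.18, with 73.2% below 0, and every KO library was below every WT library for 16.8%. For the 466 antisense RNAs the median was -0.29, with 82.0% below 0 and for 23.0% every KO library below every WT library. Since counting ignored the strand, reads from unspliced RNA of the gene on the opposite strand can enter these counts. How far they did was not tested. Over all 17388 other genes these values were -0.0065, 51.6% and 8.51%. At gd16.5 the direction was the other: 27.6% of 453 intergenic RNAs were below 0, with a median of 0.19, and 23.3% of 434 antisense RNAs, with a median of 0.24. Coding genes with 4 or more annotated retained-intron transcripts, 1699 at gd19.5, had a median of -0.0033. The antisense and intergenic classes had medians of 0.019 and -0.00065 at gd14.5. At gd10.5 the medians were -0.098 and -0.077, with 62.4% and 59.2% below 0 against 46.8% of all other genes.

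The imprinted RNAs silence genes beside them, so the genes of their domains were followed. At gd19.5, 12 of 21 were higher in KO and 9 lower, with a median of 0.04 and 0 called (3 at an unadjusted p under 0.05, 0 by DESeq2). *Igf2r*, the gene that *Airn* overlaps in antisense, was at 352 ± 52.6 CPM in WT and 432 ± 78.6 CPM in KO (SD, n = 3), 0.27 on the log2 scale (edgeR adjusted p = 0.419), and *Slc22a3* of the same domain was at -0.15 (adjusted p = 0.827). In the *Kcnq1ot1* domain, *Cdkn1c*, a cell cycle inhibitor, was at 0.12 (adjusted p = 0.578) and *Phlda2*, which limits placental growth, at 0.34 (adjusted p = 0.538). In the *Meg3* domain, *Dlk1*, made from the other parental allele, was at 0.37 (adjusted p = 0.361), and *Rian* and *Mirg*, noncoding RNAs downstream of *Meg3*, were at -0.14 and -0.28 (adjusted p = 0.458 and 0.334).

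At gd16.5, 13 of 24 domain genes were lower in KO, and for 8 of the 24 every KO library was below every WT library, against 9.62% of all genes tested. edgeR called 0 of them, and DESeq2 called *Slc22a18*. At an unadjusted p under 0.05 by edgeR 6 of them were lower, beside 956 genes lower of all 17071 tested. *Cdkn1c* (-0.29), *Igf2r* (-0.33), *Dlk1* (-0.36) and *Slc22a3* (-0.82) were among the 8, with edgeR adjusted p-values of 0.431 to 0.451. The same stage had higher *Kcnq1ot1*, *Meg3* and *Airn* means in KO. Labyrinth trophoblast, where several of these genes are expressed, had marker sums of 1389 to 2806 CPM in KO and 2746 to 3732 CPM in WT, which overlap. All 5 of its markers tested were lower in KO, with a median log2 fold change of -0.60. Of these, 3 had an unadjusted p under 0.05 by edgeR and 0 were called. The part of composition was not tested. The genes beside *Malat1* and *Neat1* on chromosome 19 had a median of -0.0059 at gd19.5, with 4 of 8 lower, and *Frmd8* was at 0.23.

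The 9 transcripts also moved together between replicates of a group. After the mean of its group of 3 was subtracted from each library, the 36 pairs of members had Pearson correlations of 0.03 (*Malat1* with *Kcnq1ot1*) to 0.86 (*Clk4* with *Clk1*) over the 24 libraries, with a median of 0.48, and 17 pairs were above 0.5. Over all 104202 pairs of a member with another gene, the other members included, the median was -0.05 and 5515 pairs were above 0.5. These points share libraries, so depth and tissue composition enter each pair. The mean of the 9 had a correlation of 0.80 with the number of genes that had a count in the library and of 0.57 with total counts, and of 0.15 with the mitochondrial share. At gd19.5 the number of genes with a count was 27078, 27441 and 27144 in WT and 26076, 27207 and 26960 in KO, which overlap.

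**Figure D4:**
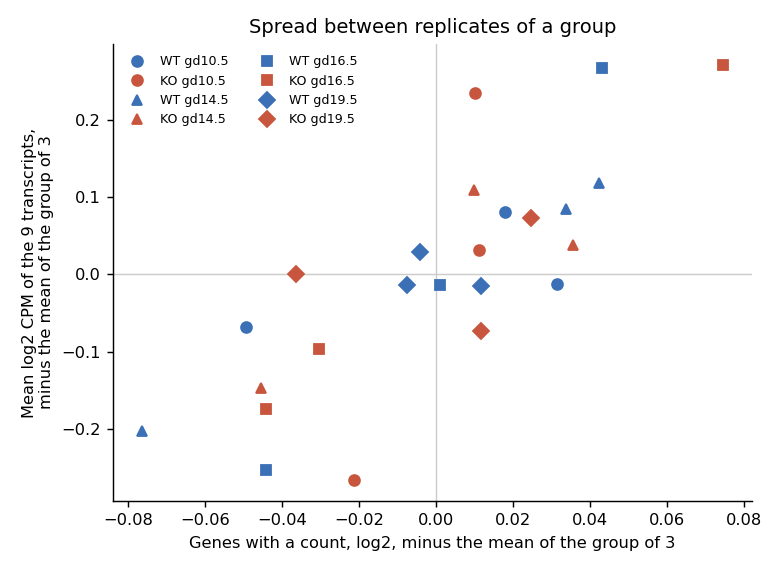
Mean log2 CPM of the 9 transcripts against the number of genes with a count (log2), both after subtraction of the mean of the group of 3, with 1 point for each of the 24 libraries. Libraries with more genes detected than the others of their group had a higher mean of the 9, with a correlation of 0.80, given as a description.

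By the same measure over 11570 genes with a mean of at least 5 CPM, the genes most like *Malat1* were *Zkscan3* (0.80), *Zfp783* (0.77), *Dusp10* (0.76), *Wdfy1* (0.75) and *Dtx3* (0.73). Those most like the mean of the 9 were *Gm43980* (0.93), *Fam193b* (0.90), *Firre* (0.89), *Ankrd24* (0.89) and *Brf1* (0.88). *Zkscan3*, a zinc finger gene, was at -0.76 on the log2 scale at gd19.5, close to *Malat1*, and *Dusp10* at -0.05.

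Promoters are shown because the members moved together. RefSeq (GRCm38.p6) gave promoters from 250 bases before to 50 after the start for 6 of the 9, without *Neat1*, *Clk1* and *Sfi1*. *Leng8* and *Meg3* have 2 entries each, which gives 8 promoters. Read on both strands, 5 of the 8, 1 for each gene except *Airn*, hold the letters TGACG or CGTCA, the half-site of the cAMP response element, which was chosen after the promoters had been read. Of all 32851 promoters 20.8% hold it. The full element TGACGTCA, in which the half-sites overlap, was found in *Clk4* and *Meg3* and in 1.79% of all promoters. Of the other motifs searched, also on both strands, 37.4% of all promoters hold CCAAT, 35.7% GGGCGG, 13.6% TATAAA, 7.15% CACGTG and 2.71% GCATGCGC. Among the members, CCAAT was found for *Leng8*, *Kcnq1ot1* and *Meg3*, and GGGCGG for *Leng8*, *Clk4* and *Airn*. TATAAA was found for *Meg3* and *Airn*, GCATGCGC for *Leng8* and *Clk4*, and CACGTG for none. The 4 promoters with 2 or more half-sites follow, with the half-sites in capitals, for *Malat1* (chr19:5802623-5802922, minus strand), *Leng8* (chr7:4136806-4137105, plus strand), *Clk4* (chr11:51262864-51263163, plus strand) and *Meg3* (chr12:109540746-109541045, plus strand).
Malat1 promoter: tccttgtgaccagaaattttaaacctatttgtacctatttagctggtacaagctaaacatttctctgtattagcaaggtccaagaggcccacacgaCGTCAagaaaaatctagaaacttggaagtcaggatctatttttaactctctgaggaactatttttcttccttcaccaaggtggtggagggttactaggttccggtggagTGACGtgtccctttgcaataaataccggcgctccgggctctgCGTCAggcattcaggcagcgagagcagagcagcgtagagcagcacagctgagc
Leng8 promoter: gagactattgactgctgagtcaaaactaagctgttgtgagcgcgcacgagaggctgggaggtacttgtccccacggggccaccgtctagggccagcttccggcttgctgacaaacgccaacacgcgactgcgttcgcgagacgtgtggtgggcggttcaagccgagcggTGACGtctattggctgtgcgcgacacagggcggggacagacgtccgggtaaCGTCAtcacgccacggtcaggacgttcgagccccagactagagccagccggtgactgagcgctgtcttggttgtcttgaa
Clk4 promoter: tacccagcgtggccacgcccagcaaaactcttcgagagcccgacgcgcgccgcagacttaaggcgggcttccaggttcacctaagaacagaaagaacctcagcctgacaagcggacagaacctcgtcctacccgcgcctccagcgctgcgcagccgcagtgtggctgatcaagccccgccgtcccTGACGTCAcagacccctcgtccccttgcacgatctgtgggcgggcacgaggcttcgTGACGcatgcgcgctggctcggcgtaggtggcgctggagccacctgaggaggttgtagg
Meg3 promoter: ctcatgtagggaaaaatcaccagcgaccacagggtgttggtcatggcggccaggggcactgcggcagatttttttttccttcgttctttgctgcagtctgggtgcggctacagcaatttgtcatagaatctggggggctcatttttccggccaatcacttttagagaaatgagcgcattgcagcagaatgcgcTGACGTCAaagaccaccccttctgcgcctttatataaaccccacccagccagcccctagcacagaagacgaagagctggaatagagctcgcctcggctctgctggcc

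The half-sites of *Malat1* began 154, 45 and 3 bases before the start of the gene, and those of *Leng8* 81 and 30 bases before it. In *Meg3* the overlapping pair stood a short way before 2 matches to the TATA box. *Kcnq1ot1* held 1 half-site, 3 CCAAT boxes and no TATA box, and *Airn* held no half-site. A match gives the letters in the window and does not show that a factor binds there, and the libraries do not bear on binding.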

How the data were processed

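The authors deposited 1 table of raw counts, whole numbers of reads per gene for 55401 genes and 24 libraries, without normalization. According to the methods and the processing notes, stranded polyA libraries were sequenced in pairs of 150 bp reads, trimmed with Trim Galore 0.6.4, aligned to GRCm38 with STAR 2.7.3a and counted with featureCounts of Subread 2.0.0 at default settings, which ignore strand and drop reads with several alignments or genes. Groups are the genotype and stage in the labels, and KO replicates carry the numbers of their descriptions. Totals of 20975717 to 37383108 counts put 3 counts at 0.0803 to 0.143 CPM, which covers counting error only. Over the 24 pairs of replicates, chi-square divided by its degrees of freedom was 8.68 to 188, so no library looked like a copy of another.

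Each contrast was fitted on its 6 libraries with edgeR 4.0.16 (R 4.3.3), by its quasi-likelihood test, after the expression filter (minimum count 10, minimum total 15) and TMM, and p-values were adjusted over all genes tested. A gene was called at an adjusted p under 0.05. No fold-change limit was set. An exact permutation test of 3 against 3, two-sided, reaches no p under 0.1. Log2 CPM used a prior count of 2. Alternatives were RLE size factors, no filter, 10 counts in every library, a replicate block, DESeq2 1.42.0, voom of limma 3.58.1, all 24 libraries in 1 fit, a Y-linked covariate and each library left out. Leaving out the libraries with high yolk sac endoderm markers at gd16.5 was chosen after seeing the data. The 9 members, the 12 companion lists and the 14 marker lists were chosen with earlier results of these data known, from general knowledge, and 329 of 333 listed genes matched the table once. Beside the members, the genes named are the 4 most abundant of each list, the genes of the imprinted domains and the 5 most like *Malat1* and the mean of the 9. *Snhg14*, *Luc7l2*, *Junb*, *Rbp4*, *Lrrn4* and *Synb* were named after their values were seen. DESeq2 gives no adjusted p to some genes, which then stay out of its counts. The fits were tested on simulated counts with known changes. Transcripts came from GENCODE M21 and promoters from RefSeq. Transcripts were aligned with BLAST 2.17.0, run from Python 3.11.15.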

Additional observations from a re-analysis of the deposited data

Results flagged for a closer look

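The KO effect on 2 transcripts had opposite signs at gd16.5 and gd19.5 with every KO library on the same side of the WT libraries at each stage. For *Sfi1* the log2 fold changes were 0.46 and then -0.42, and for *Kcnq1ot1* they were 0.54 and then -0.54. The step from gd16.5 to gd19.5 had opposite signs in WT and KO, again with no overlap between libraries, for *Leng8* (0.53 in WT and -0.36 in KO), *Clk4* (0.38 and -0.21) and *Kcnq1ot1* (0.49 and -0.60). None of these differences was tested, since the gd19.5 libraries chose the genes, and the comparisons share their gd16.5 and gd19.5 libraries. Taken singly, every KO library was above every WT library for 8.11% of genes at gd16.5, and below for 8.55% at gd19.5. In WT every gd19.5 library was above every gd16.5 library for 13.5% of genes, and in KO below for 13.6%. How many genes had both was not counted, so nothing is read from these cases. The gd16.5 libraries include the 3 with high yolk sac endoderm markers.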

How the results depend on the processing

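Of the 9 members, edgeR called 0 in KO against WT at gd10.5, gd14.5 and gd16.5 and in the interaction under every alternative run. At gd19.5 the count of 5 became 8 with no expression filter, 0 with all 24 libraries in 1 fit, 0 with the Y-linked covariate and 0 to 3 with 1 library left out. Without the filter it became 1 in place of 0 for gd16.5 against gd14.5 in WT, 8 in place of 4 for gd19.5 against gd16.5 in WT, 5 in place of 3 for gd16.5 against gd14.5 in KO and 5 in place of 1 for gd19.5 against gd16.5 in KO. DESeq2 gave 8, 6 and 2 for the last 3 of these. With 1 library left out the counts ran from 0 to 2 and from 0 to 6 for these WT steps, from 0 to 4 and from 0 to 2 for the KO steps, and from 1 to 5 for gd14.5 against gd10.5 in KO, where the main count was 5. Fewer samples were fitted there, and the cause of the other changes was not tested. The median log2 fold change of the 9 for gd16.5 against gd14.5 in WT, 0.06, ran from -0.17 to 0.18 with 1 library left out, and was -0.024 without WT gd14.5 replicate 3 and -0.17 without WT gd16.5 replicate 1. Each member kept its direction in all alternatives at gd16.5. The same held at gd19.5, where nothing is read from it because that stage chose the genes. For a called step, 37 of 120 alternatives were no longer past the threshold. At gd16.5 the smallest adjusted p of any member under any alternative was 0.0962.

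The labels tie no replicate number to an animal, litter or day, and same-numbered libraries of WT and KO had correlations of their deviations of -0.455 to 0.406 over the stages. At gd14.5 they were 0.111, 0.0271 and 0.167, and at gd19.5 they were 0.0954, 0.0379 and 0.114. At gd19.5 each library correlated best with its own number, a hint from the data and not from the design, but in no stage was every pair over 0.1, so the numbers were not used as pairs. With the replicate number as a block, the count for gd19.5 against gd16.5 in WT was 2 in place of 4, and no other count of members moved by over 1.5 times. Over all genes at gd19.5 the block called 70 genes in place of 20, no filter 675, DESeq2 200, voom 41, the Y-linked covariate 4 and 1 fit of all libraries 1. At gd16.5 the count of 1 over all genes became 114 with no filter, 172 by DESeq2, 8 with the Y-linked covariate, 2 with 1 fit of all libraries and 79 without the 3 libraries with high yolk sac endoderm markers. At gd14.5 the 3 became 243 with no filter and 22 by DESeq2. For gd19.5 against gd16.5 the 1248 genes of WT became 2435 with no filter and 459 with the block, and the 950 of KO became 2373 with no filter, 1821 by DESeq2 and 597 with the block, while the 6479 of gd14.5 against gd10.5 in KO became 3700 with the block. At these depths the 9 transcripts are well counted, and the spread between 3 libraries limits the comparisons.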
